A study of Mus musculus with 2 samples.

Results

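DNA replication and nucleotide synthesis genes were compared between sorted cell populations of the mouse forelimb. The set holds 49 genes named for their place in the replication machinery, from origin licensing to deoxynucleotide supply, and all 49 were found among 22096 gene symbols of the deposited tables. The rule names genes by function and uses no measured value, but the set was chosen with earlier results of these data known.

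The cells came from forelimbs of E13.5 embryos of a mixed strain background that carried ScxGFP, a green fluorescent reporter under regulatory sequence of *Scx*, the gene of the tendon progenitor factor scleraxis. Flow sorting gave 1 library of ScxGFP-positive cells and 1 library of ScxGFP-negative cells, each from 6 pooled forelimbs (3 pairs). Both populations were sorted on the same reporter. The negative population is whatever else the limb held, so it is a mixture of tissues and not a single control cell type. With 1 library per population there is no replicate check and no test, and each difference below describes these libraries only.

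Replication is prepared in G1, when the origin recognition complex, Cdc6 and Cdt1 load the ring of Mcm2 to Mcm7 onto DNA. At the G1/S boundary E2F factors and cyclin E with Cdk2 switch the cell into S phase, the GINS complex and Mcm10 help to start the helicase, and primase, polymerases and the Pcna clamp copy both strands. E2F factors bind promoters of many of these genes, whose transcripts are most abundant around S phase, so in a growing limb their level follows, among other things, how many cells are cycling.

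Promoter sequence was not itself used to choose the genes. Because E2F factors bind promoters of many of them, the share with an E2F element is not independent of the choice by function. The promoters set beside them were not matched for base composition. RefSeq promoter windows (GRCm38.p6, 300 bases, from 250 before to 50 after a start) were matched by symbol for 40 of the 49 genes. *Mcm4*, *Rfc2*, *Prim2*, *Pole*, *Gins1*, *Gins2*, *Gins4*, *Gmnn* and *Ccne2* were not matched. The E2F element TTTNNCGC, searched on both strands, lay in a window of 17 of the 40 genes (42.5%), against 858 of 8408 measured genes with a window (10.2%) and 1602 of 27025 genes in the whole table (5.93%). Counted by window, the shares were 36.0% of 50 windows of these genes, 8.46% of windows of measured genes and 5.17% of all 32851 windows. The stricter forms TTTGGCGC, TTTCGCGC and TTTCCCGC, which are subsets of the first, were in 16 of the 40 genes (40.0%) and in 4.27% of measured genes. CCAAT, a box bound by the factor NF-Y, was in 25 of the 40 genes (62.5%), against 43.1% of measured genes and 41.1% of all genes in the table. A match describes letters only, and no match says only that these letters are not in this window.

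The 150 bases before the annotated start are printed for 5 genes, chosen after their values were seen to span the range of letters and of differences between the libraries. Capitals mark TTTNNCGC and CCAAT on either strand. *Mcm6* (chr1:128359706-128359855, minus strand) has 3 E2F matches, of which 2 overlap on opposite strands, and 2 CCAAT boxes. *Uhrf1* (chr17:56303187-56303336, plus strand) has 1 of each in the printed window, which is 1 of 2 for this gene. The 150 bases before the start of the other *Uhrf1* window hold 0 E2F matches and 2 CCAAT boxes, and 1 E2F match lies further upstream. *Gins3* (chr8:95633409-95633558, plus strand) has 1 E2F match and 2 CCAAT boxes. *Pcna* (chr2:132253181-132253330, minus strand) has 1 CCAAT box and no E2F match, and *Ccne1* (chr7:38107491-38107640, minus strand) has neither. Coordinates are GRCm38 and each sequence reads 5′ to 3′ on the strand of its gene.
Mcm6: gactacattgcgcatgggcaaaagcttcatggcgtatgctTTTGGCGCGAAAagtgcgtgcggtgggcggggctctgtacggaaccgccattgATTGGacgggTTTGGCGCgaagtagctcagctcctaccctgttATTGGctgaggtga
Uhrf1: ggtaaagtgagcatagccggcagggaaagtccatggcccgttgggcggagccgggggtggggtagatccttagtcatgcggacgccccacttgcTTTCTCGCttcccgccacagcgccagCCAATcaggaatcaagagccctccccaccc
Gins3: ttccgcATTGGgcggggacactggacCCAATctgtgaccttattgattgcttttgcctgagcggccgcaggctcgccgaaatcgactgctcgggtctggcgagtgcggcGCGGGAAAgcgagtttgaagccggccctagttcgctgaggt
Pcna: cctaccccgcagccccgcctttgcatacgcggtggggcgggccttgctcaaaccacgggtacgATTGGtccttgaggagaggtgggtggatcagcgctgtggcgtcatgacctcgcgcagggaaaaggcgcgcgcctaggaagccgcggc
Ccne1: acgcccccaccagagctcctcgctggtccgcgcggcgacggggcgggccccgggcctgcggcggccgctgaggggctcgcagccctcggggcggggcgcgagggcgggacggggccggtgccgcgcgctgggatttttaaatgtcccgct

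Values are the deposited FPKM, a fragment density corrected for transcript length and library size, with the listed transcripts of each gene added up. Because FPKM is per length, levels of different genes are set beside each other, but only roughly. The difference between the libraries kept a relation to transcript length (Spearman's rho 0.21 across measured genes). Other effects on level between genes were not examined. Differences are given as log2((FPKM positive + 1) / (FPKM negative + 1)), called the log2 ratio below, in which a negative value is lower in ScxGFP-positive cells. A gene was measured when its FPKM was at least 1 in either library, which held for 12096 genes. All 49 replication genes passed, and all 49 were at 1 FPKM or more in each library alone. The sort was as labelled: *Scx* stood at 134 FPKM in positive against 1.69 in negative cells. Sequence on the listed transcripts came to 0.687 gigabases for ScxGFP-positive and 0.875 gigabases for ScxGFP-negative cells. The sequence behind a replication gene ranged from 6.94 kilobases (*Ccne2*) to 250 kilobases (*Dnmt1*) in positive cells, and from 7.37 to 415 kilobases for the same genes in negative cells.

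On the deposited scale the replication genes were lower in ScxGFP-positive cells almost throughout, most of them by a modest amount. Of the 49, 48 stood lower in the positive library and 1, *Ccne1*, stood higher. The median log2 ratio was −0.60, with an interquartile range from −0.70 to −0.38 and a full range from −1.22 (*E2f2*) to 0.59 (*Ccne1*). The whole measured transcriptome was also shifted, with a median of −0.27 and 73.8% of genes below 0, and the median of the replication genes less that of all genes was −0.34. Relative to that median, 42 of 49 (85.7%) were lower and 7 were higher. How many of the 49 stood lower in absolute terms depended on the scaling: 42 did with the median ratio set to 1 and 36 when both libraries were scaled to the same total FPKM (TPM), while 42 stayed below the median of all genes under both.

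Few of the differences were large. At 2-fold or more on the FPKM + 1 scale, 3 of the 49 genes were lower (6.12%), *E2f2*, *Rpa3* and *Fen1*, against 9.98% of all measured genes. The count was 5 of 49 with a pseudocount of 0.1, against 14.7% of measured genes. With the top transcript row only it was 4 of 48, against 10.8%. All 3 calls ended with a pseudocount of 5 (0 of 49, against 3.26% of measured genes). They also ended with the median ratio set to 1 (0 of 49, against 7.47%) and with equal upper quartiles (0 of 49, against 7.56%). With TPM scaling or the length trend removed *E2f2* alone stayed past 2-fold lower, against 10.7% and 6.46% of measured genes. On the deposited scale none of the 49 was higher at 2-fold, against 4.03% of measured genes. At 1.5-fold, a limit added after the values were seen, 25 of 49 were lower (51.0%) on the deposited scale. For measured genes that share was 23.7%. At the same limit 1 was higher, against 7.60% of measured genes. The 1.5-fold count was not taken under other scalings. The median of the 49 was −0.33 with the median ratio set to 1, −0.21 with TPM and −0.27 with the length trend removed. Each of these medians is within 1.5-fold, so fewer genes would pass there. On the deposited scale the share past 2-fold was thus below that of all genes and the share past 1.5-fold above it, a description without a test. Nearest the 2-fold limit were *Fen1*, at −1.03 inside it, and *Pcna*, at −0.92 outside it.

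**Figure D1:**
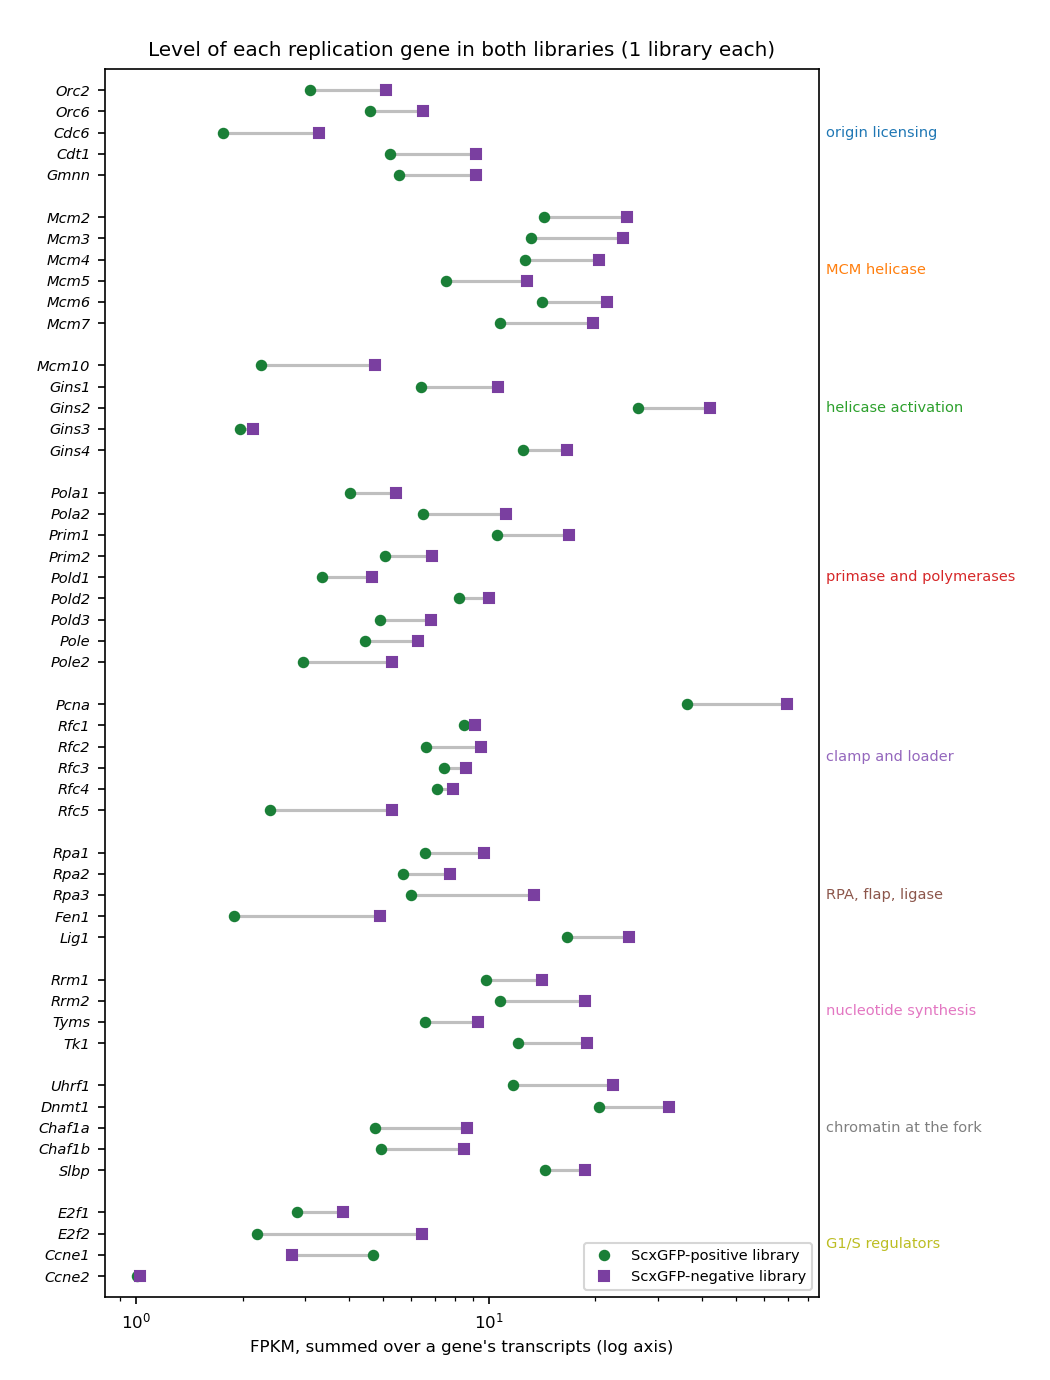
FPKM of each of the 49 replication genes (log axis) in the ScxGFP-positive library (circles) and the ScxGFP-negative library (squares), 1 library each, grouped by role. The circle lies left of the square for 48 genes and right of it for Ccne1, on the scale as deposited; 42 genes stay lower with the median ratio set to 1.

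Origin licensing genes were lower in ScxGFP-positive cells, 5 of 5, against 73.8% of measured genes, with a median log2 ratio of −0.63. *Cdt1*, whose protein brings the helicase ring to the origin, stood at 5.24 FPKM in positive against 9.17 in negative cells. *Gmnn*, encoding geminin, the inhibitor that holds Cdt1 back after replication has begun, stood at 5.57 against 9.15. The loader and its inhibitor were thus lower by similar amounts, with log2 ratios of −0.70 and −0.63. *Cdc6*, the ATPase of helicase loading, stood at 1.76 against 3.29. Of the origin recognition complex, *Orc2* stood at 3.11 against 5.11 and *Orc6* at 4.61 against 6.48 FPKM. All 5 were below the median of all genes.

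All 6 genes of the replicative helicase were lower, against 73.8% of measured genes, and all 6 lay below the median of all genes. *Mcm2* stood at 14.3 FPKM in positive against 24.5 in negative cells, *Mcm3* at 13.1 against 23.9 and *Mcm6* at 14.1 against 21.6. The log2 ratios of all 6 genes lay between −0.82 (*Mcm7*) and −0.58 (*Mcm6*). *Mcm4* stood at 12.6 against 20.4, *Mcm7* at 10.7 against 19.7 and *Mcm5*, the lowest in both libraries, at 7.53 against 12.8 FPKM. The protein ring holds 1 copy of each subunit; the transcript levels of the highest and lowest subunit gene differed 1.90-fold in positive and 1.92-fold in negative cells. Added up, the 6 genes reached 58.9% of their FPKM in the negative library. *Mcm7* overlaps the microRNA genes *Mir106b*, *Mir25* and *Mir93*, which are listed as transcripts of their own.

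Genes that activate the helicase were less alike. *Mcm10*, which helps the loaded ring to unwind DNA, stood at 2.26 against 4.74 FPKM, a log2 ratio of −0.82. The GINS complex, the 4-subunit part of the active helicase, split. *Gins2* stood at 26.5 against 42.2 FPKM and *Gins1* at 6.43 against 10.6, with log2 ratios of −0.65 and −0.64. *Gins4* stood at 12.4 against 16.6 (−0.39), and *Gins3* at 1.96 against 2.14, a log2 ratio of −0.09 that lies above the median of all genes. *Gins3* carries an E2F match in the promoter printed above, as *Mcm6* does. *Gins2* was the second highest of all 49 genes in each library, and its deposited level was many times that of *Gins3*, although the proteins are parts of 1 complex.

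Primase and polymerase genes were lower by smaller amounts, with a median log2 ratio of −0.42 over 9 genes and 1, *Pold2*, above the median of all genes. *Pola2*, the B subunit of polymerase alpha, stood at 6.51 against 11.1 FPKM, and *Prim1*, the catalytic primase subunit, at 10.5 against 16.8. Their partners in the same complex differed less: *Pola1*, the catalytic polymerase subunit, stood at 4.03 against 5.45 and *Prim2* at 5.07 against 6.89. Within this complex the log2 ratios were therefore −0.69 and −0.63 for the first pair and −0.36 and −0.38 for the second. Among leading-strand polymerase epsilon genes, *Pole2* stood at 2.97 against 5.29 (−0.66) and *Pole*, the catalytic subunit, at 4.46 against 6.30 (−0.42). The lagging-strand polymerase delta genes were lower as well. *Pold1*, its catalytic subunit, stood at 3.35 against 4.66, *Pold3* at 4.89 against 6.86 and *Pold2* at 8.22 against 9.98 FPKM, where the last had a log2 ratio of −0.25. *Pold2* and *Aebp1*, which stood at 6.60 against 2.70 FPKM, share 46 bases of annotated span, and the library chemistry does not mark strand.

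The sliding clamp and its loader behaved differently from each other. *Pcna*, the clamp that tethers polymerases to DNA, had the highest level of the set in both libraries, 36.4 against 69.6 FPKM, a log2 ratio of −0.92. Of the loader, *Rfc5* stood at 2.39 against 5.31 (−0.90) and *Rfc2* at 6.60 against 9.45 (−0.46). The other 3 loader genes were almost level. *Rfc1*, the large subunit, stood at 8.48 against 9.12, *Rfc3* at 7.43 against 8.58 and *Rfc4* at 7.10 against 7.91 FPKM. Their log2 ratios of −0.09, −0.19 and −0.14 lie above the median of all genes and turn positive with the median ratio set to 1. The small subunits Rfc2 to Rfc5 also serve in alternative clamp loaders, as background. *Rfc4* shares 185 bases of span with *Eif4a2*, which stood at 42.4 against 46.0 FPKM.

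Of 5 single-strand binding and Okazaki fragment genes, 2 were past 2-fold lower on the deposited scale, *Rpa3* and *Fen1*, against 9.98% of measured genes. Neither stayed past it with the median ratio set to 1 (−0.76 and −0.80), on the TPM scale (−0.69 and −0.87) or with the length trend removed (−0.50 and −0.78). *Rpa3*, the smallest subunit of replication protein A, stood at 6.01 against 13.4 FPKM, a log2 ratio of −1.04, whereas *Rpa1* stood at 6.57 against 9.69 and *Rpa2* at 5.71 against 7.74. The subunits of this trimer thus had similar levels in positive cells and less similar ones in negative cells. *Rpa3* has the shortest transcript of the set, 638 bases, and genes of its length and level had a median of −0.56, from which it differed by −0.47. *Fen1*, the flap endonuclease that trims Okazaki fragments, stood at 1.89 against 4.91 FPKM. *Lig1*, the ligase that joins them, stood at 16.6 against 24.8, a log2 ratio of −0.55. The span of *Lig1* overlaps 1409 bases of *6330408A02Rik*, which stood at 1.32 against 1.26 FPKM.

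Nucleotide synthesis genes were lower, 4 of 4, against 73.8% of measured genes, and 4 of 4 lay below the median of all genes. At 2-fold 0 of the 4 were lower, against 9.98% of measured genes. *Rrm2*, the S-phase subunit of ribonucleotide reductase, stood at 10.7 FPKM in positive against 18.7 in negative cells, and its partner *Rrm1* at 9.78 against 14.1. The regulated small subunit differed more than the large one, with log2 ratios of −0.75 and −0.48. *Tk1*, the thymidine salvage kinase, stood at 12.1 against 18.9 and *Tyms*, thymidylate synthase, at 6.59 against 9.28. A pseudogene copy, *Tyms-ps*, is listed separately at 0.311 against 0.293 FPKM; the sources used here do not say how reads were divided between the copies.

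Genes grouped as chromatin at the fork were lower, 5 of 5, with a median of −0.68. All 5 lay below the median of all genes, of which 73.8% were below 0. With transcript rows added up, 0 of the 5 were past 2-fold lower, against 9.98% of measured genes. With the top transcript row only, *Uhrf1* was past it at −1.24 and *Dnmt1* was at −0.98. *Uhrf1*, which recognises hemimethylated DNA, stood at 11.7 against 22.4 FPKM, a log2 ratio of −0.88. *Dnmt1*, the maintenance methyltransferase that it recruits, stood at 20.4 against 32.3 (−0.64). The chromatin assembly factor genes *Chaf1a* and *Chaf1b*, whose proteins deposit new histones, stood at 4.73 against 8.64 and 4.92 against 8.49. Their log2 ratios of −0.75 and −0.68 were close to those of the helicase genes. *Slbp*, which binds the stem-loop of histone messages, differed least, at 14.4 against 18.7 (−0.35). Transcript rows of *Dnmt1* did not all point the same way: NM_001199431 was listed at 7.30 against 15.4 FPKM and NM_001199432 at 9.02 against 8.16, which made up 44.1% of the gene in positive and 25.3% in negative cells. For *Uhrf1*, NM_001111078 was listed at 5.89 against 15.2 and NM_001111080 at 2.58 against 1.95. Rows of 1 gene share most of their sequence, so how fragments were divided among them is an estimate, and sums were used for this reason.

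The regulators of the G1/S boundary held both ends of the set. *E2f2*, an activator E2F, stood at 2.20 FPKM in positive against 6.47 in negative cells, the lowest log2 ratio of all 49 genes at −1.22. With a pseudocount of 5 *Pcna* was lowest, and with the top transcript row only *Uhrf1* was. *E2f1*, the other activator in the set, stood at 2.85 against 3.86 (−0.34), near the median of all genes. *Ccne1*, encoding cyclin E1, stood at 4.68 against 2.76 FPKM, the 1 gene that was higher in positive cells, with a log2 ratio of 0.59, or 0.86 above the median of all genes. *Ccne1* (NM_007633, mm9 chromosome 7, 38883003 to 38892509) was 1.51-fold higher on the FPKM + 1 scale, and its log2 ratio was 1.14 on the TPM scale. *Ccne2*, encoding cyclin E2, was level at 1.01 against 1.02. Its span overlaps that of *Ints8* by 5622 bases, and *Ints8* stood at 8.10 against 9.40 FPKM. Of these 4 regulators, *E2f2* alone was past 2-fold on the deposited scale, against 9.98% of measured genes lower and 4.03% higher. Its log2 ratio was −0.98 with the median ratio set to 1 and −0.996 with equal upper quartiles, both within 2-fold. *E2f1* and *Ccne2* lay on either side of the median of all genes.

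**Figure D2:**
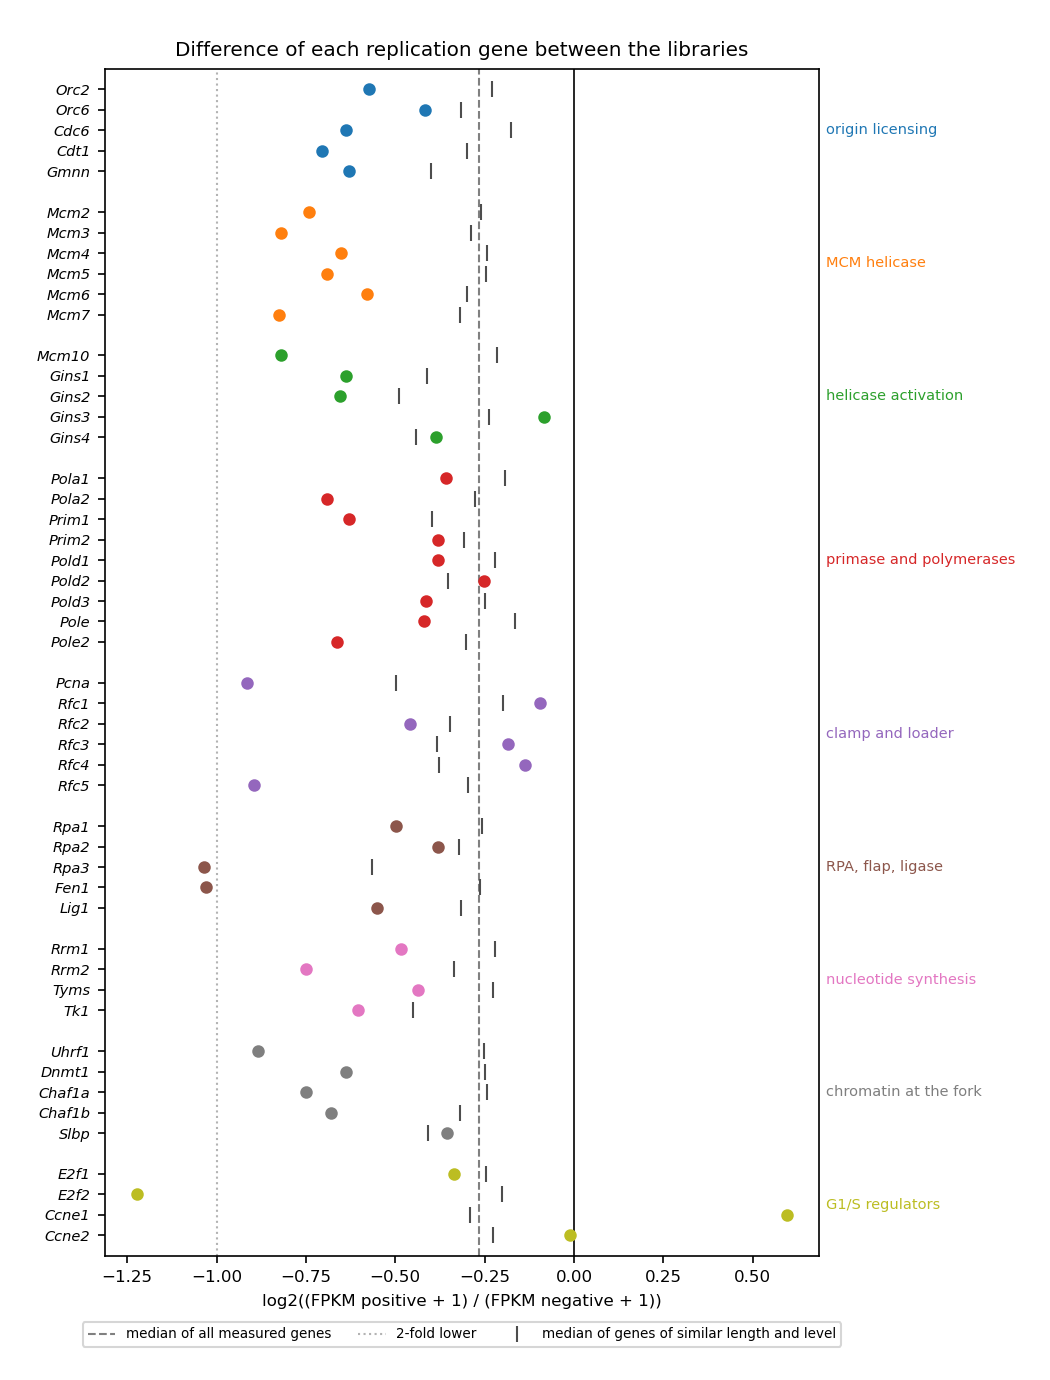
Log2 ratio of each replication gene (coloured by role, 1 library per population), with the median of genes of similar length and level (short bars), the median of all measured genes (dashed, −0.27) and 2-fold lower (dotted). Helicase genes cluster between −0.82 and −0.58, 3 genes lie past 2-fold and Ccne1 lies alone at 0.59; the sign of 6 genes near 0 turns with the median ratio set to 1.

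Measured genes of similar transcript length and level were set beside each replication gene. For each of the 49, the measured genes within 0.5 log2 units of its length and of its mean level were taken, 76 to 1714 genes per member. Their medians ranged from −0.56 to −0.16, and 40 of the 49 genes lay below theirs and 9 above, with a median difference of −0.24. On the deposited scale, of all 9146 genes near any of the 49, 8.10% were lower at 2-fold and 20.6% at 1.5-fold. For the replication genes these shares were 6.12% and 51.0%. The largest differences from similar genes were −1.02 for *E2f2*, −0.77 for *Fen1*, −0.63 for *Uhrf1*, −0.60 for *Mcm10* and −0.60 for *Rfc5*. *Ccne1* lay 0.88 above its similar genes, and *Gins3*, *Rfc3*, *Rfc4* and *Ccne2* lay 0.15 to 0.24 above theirs. Across all measured genes the log2 ratio was related to transcript length (Spearman's rho 0.21 across genes), and across the 49 the value was −0.02. Genes are not independent replicates, and both values are descriptions. The order of levels was nearly the same in both populations, with a Spearman's rho of 0.95 across the 49 genes. The 17 genes with the E2F element had a median log2 ratio of −0.64 and the 23 matched genes without it −0.60, and this difference was not tested.

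Other genes of the pathway were described in the same way, and their differences from the 49 were not tested. Of 37 other replication genes on a separate list, 35 were lower in the positive library, against 73.8% of measured genes. Their median was −0.39, and 24 lay below the median of all genes. On the FPKM + 1 scale none was past 2-fold in either direction, against 9.98% of measured genes lower and 4.03% higher. Some FPKM below differ more than 2-fold before 1 is added. With a pseudocount of 0.1, 8 of the 67 genes on this list and the next were 2-fold lower, against 14.7% of measured genes. *Pold4*, a small subunit of polymerase delta, stood at 0.917 against 2.72 FPKM, *Cdc45*, the third part of the active helicase, at 3.98 against 8.14, and *Asf1b*, a histone chaperone, at 1.91 against 4.28. *Orc1*, the largest origin recognition subunit, stood at 1.98 against 4.11. *Skp2*, the F-box protein that marks a CDK inhibitor for destruction, lay on the other side at 22.9 against 15.7, a log2 ratio of 0.52. Of 30 other nucleotide synthesis genes, 30 were lower, against 73.8% of measured genes, and 28 were below the median of all genes, with a median of −0.54. At 2-fold on the FPKM + 1 scale 2 of the 30 were lower (6.67%), against 9.98% of measured genes. Those past 2-fold were *Prps2*, a phosphoribosyl pyrophosphate synthetase (1.05 against 4.70), and *Samhd1*, which degrades deoxynucleotides (5.41 against 12.99). The one-carbon enzymes *Shmt2* and *Shmt1*, which feed thymidylate and purine synthesis, stood at 11.1 against 23.2 and 1.58 against 4.02 FPKM. That list also holds purine, one-carbon and salvage genes that are not restricted to S phase.

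Other cell-cycle genes were mostly lower too, by amounts that differed between lists. Of 13 E2F, pocket-protein and related genes, 13 were lower, against 73.8% of measured genes, and 9 lay below the median of all genes. Their median was −0.51; *E2f4*, a repressor E2F, stood at 6.03 against 11.8 FPKM, and *Tfdp1*, the dimer partner of E2Fs, at 14.8 against 23.0. *Ccna2*, the cyclin of S and G2, stood at 14.4 against 19.5, a log2 ratio of −0.41. Of 44 mitosis genes, 43 were lower, against 73.8% of measured genes. Their median of −0.34 less that of all genes was −0.07, and 31 of 44 lay below the median of all genes. At 1.5-fold 8 of 44 were lower (18.2%), against 23.7% of measured genes. *Mki67*, the proliferation antigen, stood at 31.8 against 45.0 FPKM and *Top2a*, the mitotic topoisomerase, at 30.4 against 36.8, the latter at the median of all genes. On the TPM scale the mitosis median was 0.06 and that of all genes 0.12. The difference between the replication and the mitosis lists was not tested. *Ube2c*, an E2 enzyme of the anaphase-promoting complex, stood at 74.4 against 141 and *Mad2l1*, a spindle checkpoint gene, at 6.39 against 12.5, while *Racgap1*, a cytokinesis gene, stood at 31.8 against 28.7.

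Upstream of cyclin E, the D-type cyclin and CDK inhibitor genes went both ways. *Ccnd1* stood at 29.7 FPKM in positive against 34.4 in negative cells and *Ccnd2* at 45.7 against 42.0, log2 ratios of −0.20 and 0.12. *Cdk6*, a kinase partner of D cyclins, was past 2-fold lower at 5.17 against 16.3. *Cdkn1c*, the gene of the CDK inhibitor p57, was past 2-fold higher at 212 against 62.6 FPKM, a log2 ratio of 1.74. It had the largest log2 ratio among the cell-cycle lists. Of the 12 listed genes, 9 were measured and *Cdkn2a*, *Cdkn2b* and *Cdkn2d* were under 1 FPKM in both libraries, at 0 in the positive and at 0, 0.347 and 0.051 in the negative one.

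**Figure D3:**
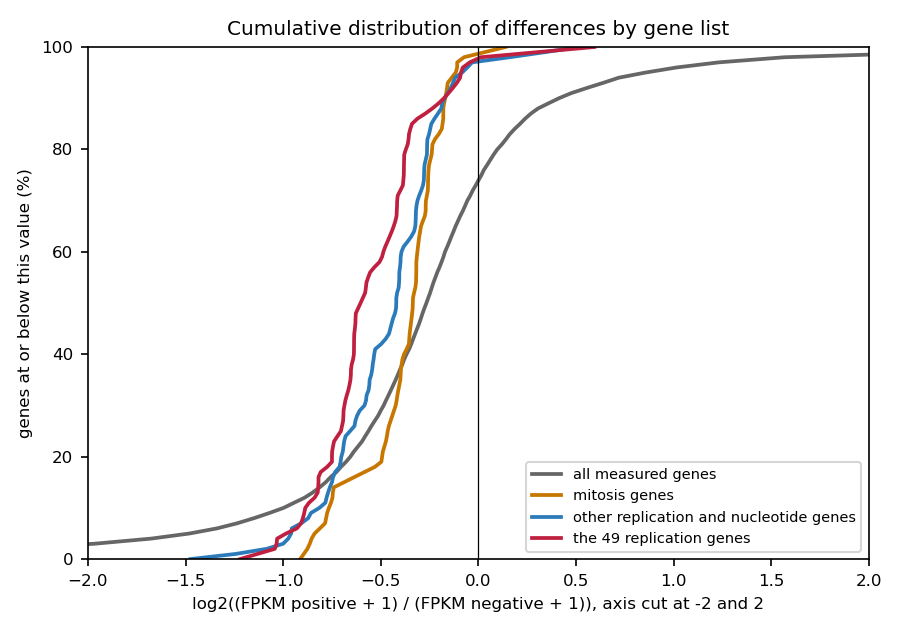
Cumulative share of genes (%) against the log2 ratio for the 49 replication genes, 67 other replication and nucleotide synthesis genes, 44 mitosis genes and all 12096 measured genes, 1 library per population. The replication curve lies left of the others over most of its range (median −0.60, against −0.42, −0.34 and −0.27) and is steeper than that of all genes, with no gene below −1.22.

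Markers of other cell types differed far more than the replication genes. Of 11 erythroid markers in the files, 10 were past 2-fold lower in the positive library, with a summed FPKM of 156 against 6437; *Gata1* was listed at 0 in the positive library, and the most abundant, *Hbb-y*, *Hba-x* and *Alas2*, stood at 85.8 against 3303, 66.4 against 2974 and 2.51 against 81.1. All 10 macrophage and leukocyte markers were past 2-fold lower, at 12.2 against 423 summed FPKM, and so were 8 of 8 epidermal markers, at 12.2 against 333. For mast cells the sums were 4.49 and 337 (3 of 3 measured past 2-fold, while *Mcpt4* and *Fcer1a*, at 0 against 0.684 and 0.047 FPKM, were not measured), for endothelium 3.49 and 54.1 (6 of 7 past 2-fold) and for Schwann cells and nerve 3.02 and 33.6 (5 of 6). Skeletal muscle markers went the other way, 6 of 6 measured past 2-fold higher, at 150 against 18.6 summed FPKM, led by *Actc1*, *Tnnt1* and *Tmem8c*. Cartilage markers were within 2-fold on the FPKM + 1 scale, 4 of 4 measured, and went both ways, 2 higher and 2 lower. Their sum of 89.2 against 66.7 was mostly *Col2a1*, at 68.1 against 40.4. *Sox9* stood at 13.9 against 18.9 and *Col9a1* at 4.90 against 6.89. The blood, epidermal, endothelial and nerve markers were lower in the same library as the replication genes, the muscle markers were higher there, and the part of either in the result was not tested. In sorted pools such as these, fewer cycling cells and less RNA of these genes per cell cannot be told apart.

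**Figure D4:**
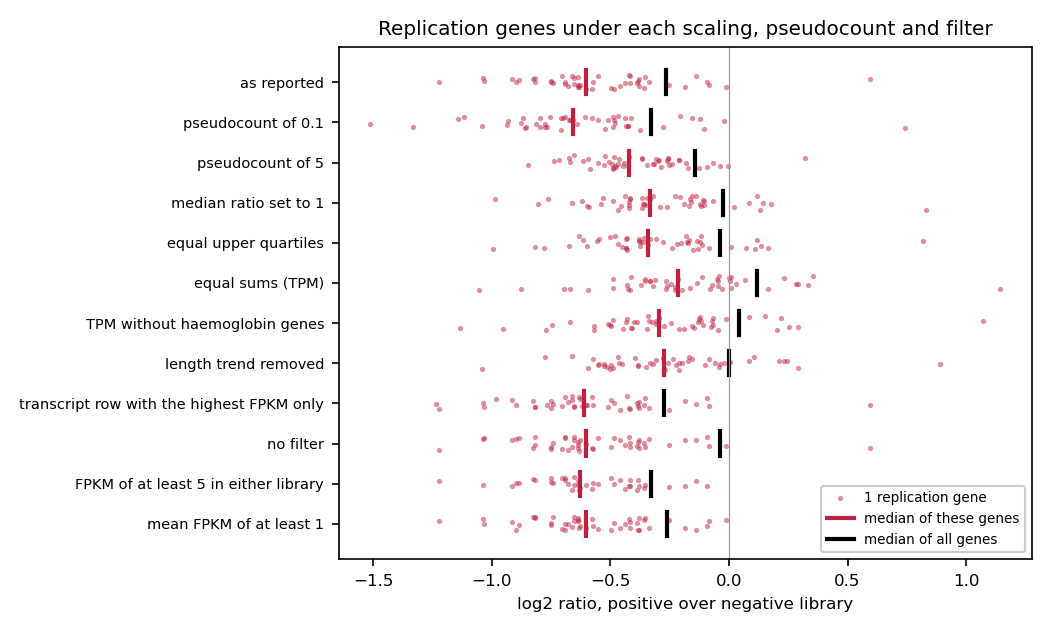
Log2 ratio of each replication gene (dots) with the median of these genes (red bar) and of all genes (black bar) under each scaling, pseudocount and filter; vertical scatter is for display only. The red bar lies left of the black bar in every setting shown, with differences from −0.27 to −0.57, and under equal sums 13 genes, Ccne1 among them, lie above 0.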

How the data were processed

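RNA was sequenced from 2 libraries in 2 groups, taken from the labelled cell population. Per the labels' protocols, frozen sorted cells gave total RNA (RNeasy micro kit), and NuGEN Ovation RNA-Seq v2, a chemistry that does not mark strand, gave the cDNA. The tools named in the submitters' processing notes are TopHat 1.4.1 and Bowtie 0.12.7, and the build is mm9. The sources used here give no version of the abundance program. The deposited FPKM, per the file headers, is scaled to transcript length and mapped fragments. The deposited coverage is a signal, the estimated depth of aligned bases over a transcript; coverage times length gave aligned bases. Read counts are unknown, so no interval or count test was made.

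FPKM was summed per symbol over 28107 rows; 6 symbols with a failed row were missing, none of them among the 49. The measure was the log2 ratio with a pseudocount of 1, the filter 1 FPKM or more in at least 1 library, and the limit 2-fold. With 1 library per group no test or p-value was possible. The code was tested on simulated data. Members and lists were chosen with earlier results of these data known. All 49 genes are named, and of other lists up to 4 with the largest absolute log2 ratio, the largest of opposite sign, 7 genes whatever their value, and the 3 most abundant markers of each cell type; the text gives most of them. Protein sequences were not used here. Python 3.11.15, pandas 2.3.3, NumPy 2.4.6 and Matplotlib 3.10.9 were used. Alternatives were other scalings, pseudocounts, filters, a length correction and the use of 1 transcript row per gene.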

Additional observations from a re-analysis of the deposited data

How the results depend on the processing

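No paired analysis was possible because each group has 1 library, and no library could be left out. The members' median log2 ratio (−0.60) stayed negative in every alternative. It was −0.66 and −0.42 with pseudocounts of 0.1 and 5, −0.33 with the median ratio set to 1, −0.34 with equal upper quartiles, −0.21 with equal sums (TPM), −0.29 with TPM without haemoglobin genes, −0.27 with the length trend removed, −0.61 with the top transcript row and −0.63 with an FPKM of at least 5. Less the median of all genes (−0.34), it was −0.33, −0.28, −0.30, −0.30, −0.33 and −0.27 for the pseudocounts, the median ratio, upper quartiles, TPM and the length trend, −0.57 with no filter and −0.30 with an FPKM of at least 5. The count past 2-fold lower (3) was 5 and 0 with the pseudocounts, 0 with either the median ratio or upper quartiles, and 1 with TPM, TPM without haemoglobin genes or the length trend removed. It was 4 of 48 with the top transcript row and 2 of 41 with an FPKM of at least 5. It was 25 at 1.5-fold on the deposited scale, a limit chosen after seeing the data and not counted under other scalings. The count higher (0) was 1 with either TPM scaling and at 1.5-fold. For other replication and nucleotide genes (median −0.42, 2 lower) the medians were −0.55, −0.26, −0.19, −0.20, −0.12, −0.19 and −0.15 in the same order of scalings, and the counts 8, 0, 1, 1, 1 and, with the length trend removed, 1. For mitosis genes (median −0.34, 0 lower) the medians were −0.38, −0.24, −0.066, −0.079, 0.060, −0.018, −0.11 and, with the top row, −0.35, with 1 gene lower there. Of all genes past 2-fold, 28.8% were higher, and 42.2%, 41.7%, 49.7%, 46.0% and 47.6% with the median ratio, upper quartiles, both TPM scalings and the length trend. The cause was not tested. Depth in reads is unknown, which limits statements about genes near 1 FPKM such as *Ccne2*, *Cdc6* and *Fen1*.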
